A study of Mus musculus with 5 samples.

Results

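The respiratory chain of the mitochondrial inner membrane is built from subunits encoded in 2 genomes, and its messenger RNAs were compared between the lens of Yap1 cKO mice and that of littermates without Cre. The members were the rows of the deposited table annotated to the KEGG oxidative phosphorylation pathway, or named as mitochondrially encoded subunits (mt-Nd, mt-Co, mt-Cytb and mt-Atp), without the vacuolar proton pump symbols Atp6v and Atp6ap. This rule took in 116 of 22183 genes, and 104 of them had at least 10 counts in 2 or more of the 5 libraries. These 104 members are 13 mitochondrially encoded and 91 nuclear encoded genes, and all 104 were among the 11724 genes tested. The 12 other rows had at most 8 counts in any library, among them the muscle-type isoform gene Cox7a1 (highest count 8), whereas the member nearest to the minimum, Ndufa4l2, had 36 counts in its second-highest library.

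Complexes I and II pass electrons from NADH and succinate to coenzyme Q, complex III passes them to cytochrome c, and complex IV passes them to oxygen. Complexes I, III and IV pump protons, which drive the ATP synthase (complex V). Complex II is encoded in the nucleus alone, while the other complexes each join nuclear subunits to subunits made inside the mitochondrion. In the lens, mitochondria are kept by the epithelium and the outer fibre cells and are removed as fibres mature.

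The cKO group (2 libraries) came from 14-day-old mice with Cre and the floxed Yap1 alleles f/f or f/+, chosen for a severe eye phenotype, with small eyes and a closed pupillary membrane. The Ctrl group (3 libraries) came from littermates with the same f/f or f/+ alleles, without Cre and free of abnormality, which the labels also name WT. For each library 4 to 6 whole lenses were combined, and poly(A) RNA was sequenced. Which promoter drove Cre was not stated. Yap1 itself had 92 and 61 counts in cKO 1 and 2, against 155, 133 and 143 in Ctrl 1, 2 and 3, and its change of −1.08 on the log2 scale (SE 0.33) missed the threshold (edgeR adjusted p = 0.0759).

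Library totals were 22047553 to 25762805 counts. Lens fibre markers dominated every library, with 449200 and 408100 CPM (reads per gene with every library brought to the same size by TMM) in the cKO libraries and 362300 to 428100 CPM in Ctrl, summed over 13 genes. Of these 13, Lgsn (−4.20, edgeR adjusted p = 0.0188) and Bfsp1 (−1.34, edgeR adjusted p = 0.0227) were lower and 0 higher. Of 9 lens epithelium markers 4 were lower and 0 higher in cKO, although their sum (1297 and 2564 CPM in cKO 1 and 2) lay on both sides of Ctrl (2061 to 2305 CPM). The lower genes were Pax6, Cdh1, Gja1 and Npnt. Of 14 macrophage markers 9 were higher, with sums of 148 and 41.8 CPM in cKO 1 and 2 and 2.15 to 4.13 CPM in Ctrl, where Ptprc was at 0. Of 5 cornea and conjunctiva markers all were at 0 in both cKO libraries and 4 of them in all Ctrl libraries. The Y-linked Ddx3y had 0 counts in both cKO libraries and 656 to 854 in Ctrl, so that sex and genotype cannot be told apart. In such bulk samples fewer cells of a type and less RNA per cell cannot be told apart either.

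Across the whole module 13 of the 104 members rose in cKO and 0 fell, which is 12.5% higher, against a background of 5.76% higher and 7.73% lower among all genes tested (13.5% in either direction; edgeR quasi-likelihood test, Benjamini-Hochberg adjusted p under 0.05). At an unadjusted p under 0.05, 34 members were higher and 0 lower by edgeR, against 14.8% and 17.4% of all tested genes. DESeq2 called 24 members higher and 0 lower, against 1203 higher and 1561 lower among all genes. The median log2 fold change of the members was 0.33, with 89 positive and 15 negative, whereas the median over all tested genes was −0.06, with 47.1% positive. In 58 of the 104 members both cKO libraries lay above all Ctrl libraries, and in 1 both lay below, against 22.8% and 28.7% of all tested genes. The 4286 tested genes with a mean of at least 10 CPM had a median of 0.09 and 56.2% positive values. Of these genes 9.4% were called higher, 22.3% were higher at an unadjusted p under 0.05 by edgeR, and 31% had both cKO libraries above Ctrl. Against these the share of members called higher (12.5%, and 8.79% of the nuclear members) was near the background. Without Ctrl 1, 2 or 3 0, 0 and 1 members were called (the last mt-Nd1, edgeR adjusted p = 0.043), while among all genes 26, 6 and 30 were called higher and 39, 15 and 52 lower.

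The 13 mitochondrially encoded members had a median log2 fold change of 0.64, with 5 that rose and 13 positive values. The 91 nuclear members had a median of 0.28, with 8 that rose and 76 positive values. Summed over the mitochondrial members the level was 5753 and 5668 CPM in cKO 1 and 2, against 3046, 2926 and 3500 CPM in Ctrl 1, 2 and 3. The nuclear members summed to 7916 and 6801 CPM in cKO 1 and 2, against 6622, 6155 and 5917 CPM in Ctrl 1, 2 and 3. Both sums were higher in each cKO library than in any Ctrl library, by 1.81 times in the mean for the mitochondrial and 1.18 times for the nuclear genes. Summed macrophage markers were 148 and 41.8 CPM in cKO 1 and 2 and 2.15 to 4.13 CPM in Ctrl. The part of macrophage and epithelial RNA in the mitochondrial and nuclear sums was not tested.

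A ratio of the genomes inside a library does not depend on how libraries are scaled. Summed FPKM (length-scaled levels as deposited) of mitochondrial over nuclear members was 0.612 and 0.691 in cKO 1 and 2, against 0.381, 0.399 and 0.5 in Ctrl 1, 2 and 3. The cKO libraries lay above every Ctrl library, with a difference of 0.62 in the mean log2 ratio. By complex, the same ratio was 0.262 and 0.335 in cKO against 0.116 to 0.173 in Ctrl for complex I, and 1.33 and 1.62 in cKO against 0.691 to 0.999 in Ctrl for complex IV. The groups overlapped for complex III, at 0.568 and 0.586 in cKO and 0.580 to 0.781 in Ctrl, and for complex V, at 0.674 and 0.677 in cKO and 0.521 to 0.683 in Ctrl. The cKO libraries thus lay above Ctrl in complexes I and IV and not in the other pair. Most of the mitochondrial complex I sum in cKO was mt-Nd1, at 713 of 1073 and 937 of 1426 FPKM in cKO 1 and 2. In Ctrl 1, 2 and 3 it was 196 of 419, 180 of 365 and 267 of 564 FPKM. The complex I separation thus rests largely or wholly on this gene. The ratio without it was not taken, so no separation of the ratio is shown for the other mitochondrial subunits of complex I.

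**Figure D1:**
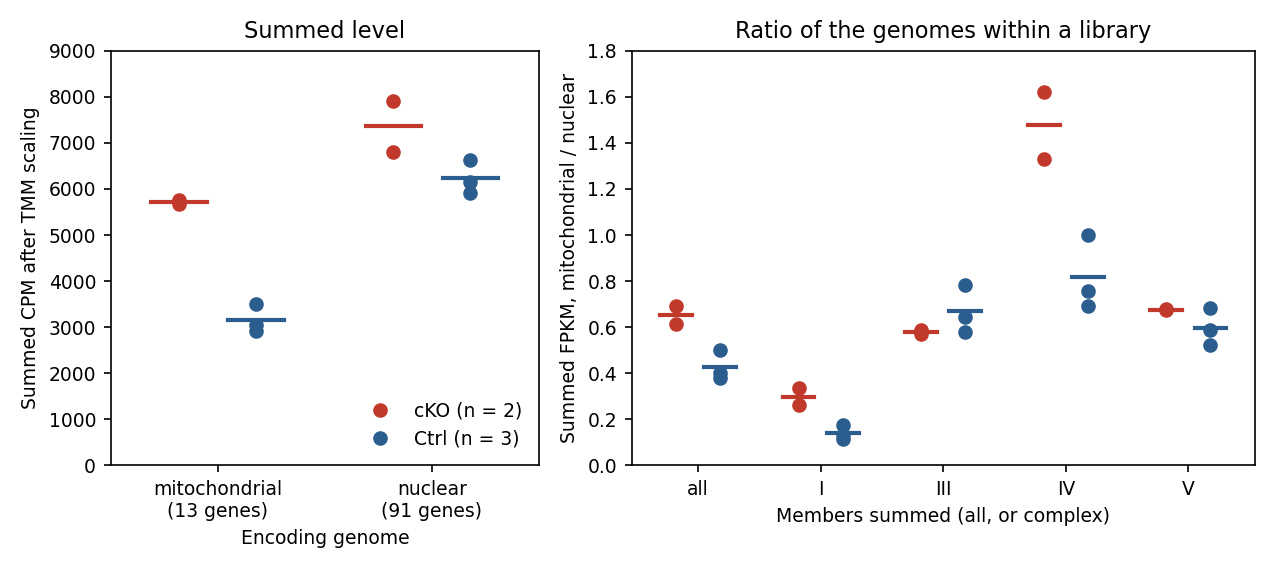
Left, summed CPM of the 13 mitochondrially and 91 nuclear encoded members in each library. Right, ratio of summed FPKM of mitochondrial over nuclear members within each library, for all members and by complex. Points are libraries and lines are group means, and the cKO points lie above all Ctrl points for the whole set, complex I and complex IV. In complex I most of the mitochondrial sum in cKO is mt-Nd1, and the ratio without it was not taken.

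The mitochondrial mRNAs did not change alike. The largest change was in mt-Nd1, a core membrane subunit of complex I, with 678 and 757 CPM in cKO 1 and 2, against 211, 186 and 253 CPM in Ctrl 1, 2 and 3. Its log2 fold change was 1.73 (SE 0.17, edgeR adjusted p = 0.00689), or 3.31-fold. All 3 mitochondrially encoded subunits of complex IV, which form its catalytic core, rose as well. mt-Co1, which carries the haem and copper centre where oxygen is reduced, had 1372 and 1551 CPM in cKO 1 and 2, against 679, 658 and 769 CPM in Ctrl 1, 2 and 3, a log2 change of 1.06 (SE 0.15, edgeR adjusted p = 0.014). mt-Co2, which takes electrons from cytochrome c, had 564 and 585 CPM in cKO 1 and 2, against 270, 254 and 298 CPM in Ctrl 1, 2 and 3, a change of 1.07 (SE 0.14, edgeR adjusted p = 0.012). mt-Co3 had 926 and 849 CPM in cKO 1 and 2, against 353, 306 and 365 CPM in Ctrl 1, 2 and 3, a change of 1.38 (SE 0.15, edgeR adjusted p = 0.00727). In each of these 4 genes the lowest cKO library was well above the highest Ctrl library. Both cKO libraries lay above Ctrl in 22.8% of all tested genes and in 31% of those with a mean of at least 10 CPM. The 4 genes were picked as called in these same libraries, so this adds no support.

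The fifth called gene, mt-Nd3 of complex I, had 25.6 and 25.9 CPM in cKO 1 and 2, against 14.8, 8.35 and 12.2 CPM in Ctrl 1, 2 and 3. Its log2 fold change was 1.13 (SE 0.25, edgeR adjusted p = 0.0374). The other complex I mRNAs, mt-Nd2, mt-Nd4, mt-Nd4l, mt-Nd5 and mt-Nd6, had changes of 0.64, 0.46, 0.81, 0.50 and 0.53 and missed the threshold (edgeR adjusted p = 0.108 to 0.205). In all 5 both cKO libraries lay above all Ctrl libraries, as they did in 22.8% of all tested genes. For mt-Nd4 the margin was small, at 191 and 218 CPM in cKO and 122 to 189 CPM in Ctrl. mt-Nd6, the single subunit gene on the other strand, was low in this poly(A) library, at 9.52 and 10.1 CPM in cKO and 5.47 to 7.7 CPM in Ctrl. Its messenger is known to carry little or no poly(A) tail.

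mt-Cytb, the only mitochondrially encoded subunit of complex III, stood apart from these. It had 823 and 651 CPM in cKO 1 and 2, against 630, 655 and 750 CPM in Ctrl 1, 2 and 3, so that the groups overlapped. In FPKM they did not, at 724 and 674 in cKO and 490 to 663 in Ctrl. The log2 fold change was 0.12 (SE 0.17, edgeR adjusted p = 0.673), and it turned to −0.07 without cKO 1. The ratio of mt-Nd1 to mt-Cytb in FPKM was 0.986 and 1.39 in cKO 1 and 2, against 0.400, 0.339 and 0.404 in Ctrl 1, 2 and 3. The ratio of mt-Co1 to mt-Cytb was 1.24 and 1.76 in cKO, against 0.744 to 0.799 in Ctrl. Both ratios were higher in each cKO library. Level per length followed another order, with mt-Atp6 highest (1478 ± 22.9 FPKM in cKO, n = 2, and 925 ± 134 in Ctrl, SD, n = 3) and mt-Co3 next in cKO (1236 ± 66 FPKM), where mt-Cytb was next in Ctrl (562 ± 89.8 FPKM). Next in Ctrl came mt-Co1, mt-Co3 and mt-Co2 at 430 ± 63.3, 412 ± 54.7 and 379 ± 53.2 FPKM, neighbours that differed by less than their spread.

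**Figure D2:**
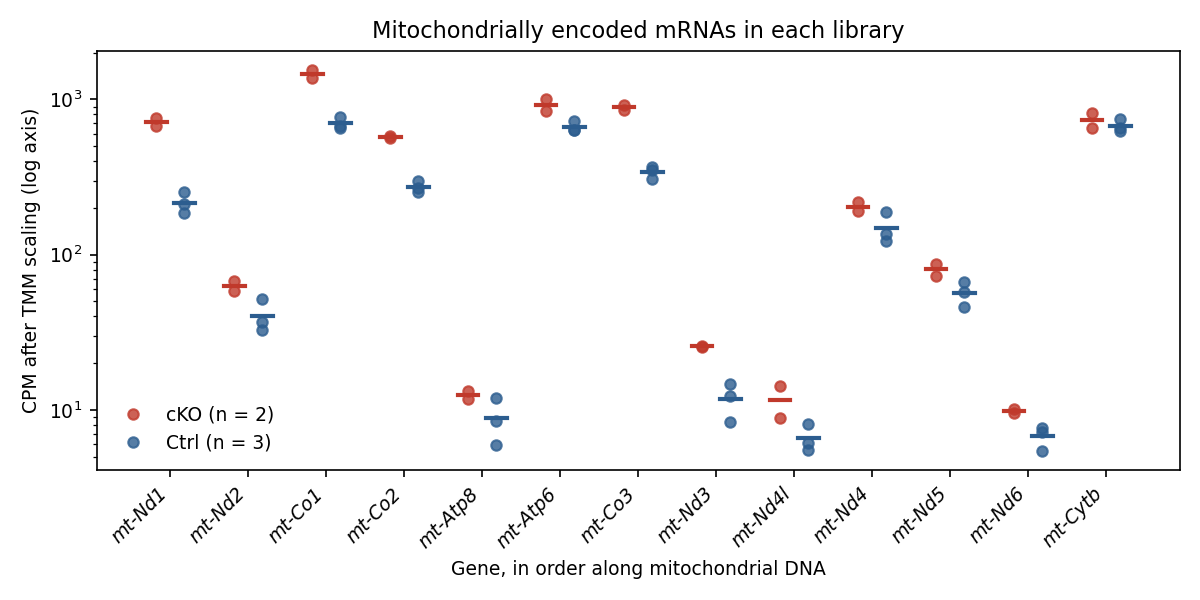
CPM after TMM scaling, on a log axis, of the 13 mitochondrially encoded mRNAs in each library, in the order of the genes along mitochondrial DNA. Points are libraries and lines are group means. The groups are widest apart at mt-Nd1, mt-Co1, mt-Co2, mt-Co3 and mt-Nd3 and overlap at mt-Cytb and mt-Atp8.

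The mitochondrial subunits of the ATP synthase rotor-stator part, mt-Atp6 and mt-Atp8, had log2 fold changes of 0.48 and 0.51 and missed the threshold (edgeR adjusted p = 0.0897 and 0.315). mt-Atp6 had 1011 and 841 CPM in cKO 1 and 2, against 631, 638 and 725 CPM in Ctrl 1, 2 and 3. Both cKO libraries lay above Ctrl, as in 22.8% of all tested genes. mt-Atp8 had 13.3 and 11.7 CPM in cKO 1 and 2, against 12, 8.49 and 5.95 CPM in Ctrl 1, 2 and 3, and the groups overlapped. These 2 frames are known to share 1 messenger, as do mt-Nd4l and mt-Nd4, yet their levels per length were 66.9 FPKM (mt-Atp8) and 1478 FPKM (mt-Atp6) in cKO and 40.2 and 925 FPKM in Ctrl. The shared stretches are shown because reads in them belong to both frames; capitals mark the overlap of 43 bases between mt-Atp8 and mt-Atp6 and of 7 bases between mt-Nd4l and mt-Nd4 in the GENCODE M21 transcripts of build GRCm38 (plus strand), with 30 bases on either side.
mt-Atp8 and mt-Atp6 (chrM:7897-7999): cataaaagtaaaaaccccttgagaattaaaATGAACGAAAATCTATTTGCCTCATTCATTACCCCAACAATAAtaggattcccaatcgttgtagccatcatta
mt-Nd4l and mt-Nd4 (chrM:10137-10203): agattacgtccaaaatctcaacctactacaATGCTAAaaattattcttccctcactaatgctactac
None of the 13 mitochondrial members had a fractional count in any library, so how the counting handled these shared bases is not visible in the values. The gene mt-Co3, which follows mt-Atp6, had a ratio to it of 0.796 and 0.877 in cKO and 0.417 to 0.485 in Ctrl (FPKM).

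The nuclear subunits had small changes in all 5 complexes. Their medians were 0.21 for complex I (37 genes), 0.30 for complex II (4), 0.34 for complex III (9), 0.28 for complex IV (16) and 0.33 for complex V (15), against 1.07 for the mitochondrial subunits of complex IV. The number that rose was 3, 0, 1, 3 and 1 in complexes I to V, and 0 fell in each. Together these are 9.88% of the 81 nuclear subunits, against 5.76% of all tested genes and 9.4% of those with a mean of at least 10 CPM. The share was thus near the background, and the counts do not rank the complexes. Without cKO 1 the medians were 0.07 for complex I, 0.19 for complex III and 0.16 for complex V. Over all nuclear members the median was 0.14 without cKO 1 and 0.42 without cKO 2. Fractional counts, which arise where reads are divided among genes, were seen in 9 members, among them Ndufb6, Cox11, Atp5g1, Cycs and Gm10053 in all libraries. The levels of these genes are uncertain to that extent.

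**Figure D3:**
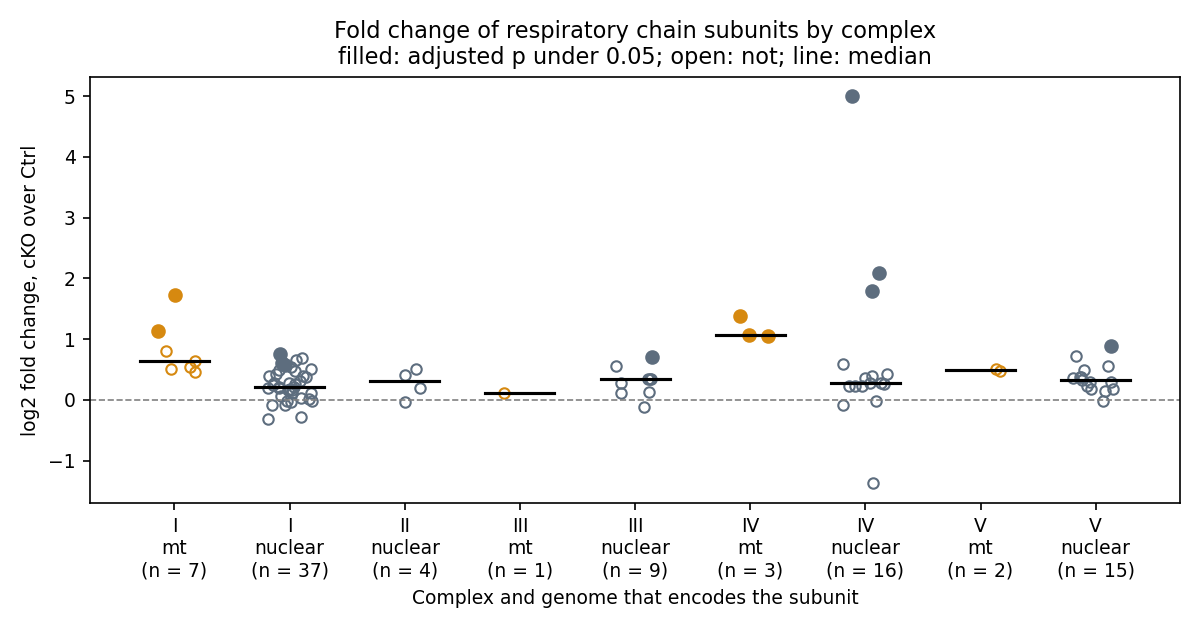
Log2 fold change (cKO over Ctrl) of the subunits of complexes I to V, by the genome that encodes them. Filled points passed the adjusted p of 0.05, open points did not, and black lines are medians. In complexes I and IV the median of the mitochondrial subunits (0.64 and 1.07) lies above that of the nuclear subunits (0.21 and 0.28), while single genes of the 2 genomes overlap.

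Complex I, the largest complex, had 30 positive and 7 negative changes among its 37 nuclear members. Its 7 nuclear core subunits, which carry the catalytic centres, were all positive, with a median of 0.38, but 0 passed. The 3 that rose are accessory subunits. Ndufb10, of the membrane arm, had 53.5 and 54 CPM in cKO 1 and 2, against 32.8, 31.8 and 31 CPM in Ctrl 1, 2 and 3, a log2 change of 0.75 (SE 0.13, edgeR adjusted p = 0.0206). Ndufa8, also of the membrane arm, had 34.9 and 35.2 CPM in cKO 1 and 2, against 24.1, 24.3 and 21.8 CPM in Ctrl 1, 2 and 3, a change of 0.58 (SE 0.14, edgeR adjusted p = 0.0426). Ndufa2, of the matrix arm, had 125 and 110 CPM in cKO 1 and 2, against 86.3, 71.5 and 73.1 CPM in Ctrl 1, 2 and 3, a change of 0.61 (SE 0.15, edgeR adjusted p = 0.0464). None of the 3 overlapped between groups, where 22.8% of all tested genes had both cKO libraries above Ctrl. The 3 were picked as called in these same libraries, so the lack of overlap adds no support. The most abundant subunit per length, Ndufa1, did not share this, at 293 and 263 CPM in cKO and 290 to 297 CPM in Ctrl (log2 fold change −0.08, SE 0.13, edgeR adjusted p = 0.731). Ndufb8 and Ndufa7, the next most abundant, had 0.11 and 0.24 and also missed the threshold (edgeR adjusted p = 0.633 and 0.292).

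Complex II, which also serves the citrate cycle as succinate dehydrogenase, had no member that passed. Sdha, the flavoprotein, had 78.1 and 84.4 CPM in cKO 1 and 2, against 65.8, 67.9 and 78.2 CPM in Ctrl 1, 2 and 3, with overlap. Sdhb, the iron-sulfur subunit, overlapped too, at 193 and 165 CPM in cKO and 175 to 191 CPM in Ctrl. The membrane anchors Sdhc and Sdhd had no overlap, with log2 fold changes of 0.40 and 0.50 (edgeR adjusted p = 0.181 and 0.0668), against 0.20 for Sdha and −0.03 for Sdhb. Among all tested genes 22.8% had both cKO libraries above Ctrl.

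In complex III, Uqcrq rose, with 129 and 100 CPM in cKO 1 and 2, against 79.3, 69.3 and 62.6 CPM in Ctrl 1, 2 and 3. This small subunit sits next to cytochrome b, and its log2 fold change was 0.70 (SE 0.17, edgeR adjusted p = 0.048). The catalytic nuclear subunits, cytochrome c1 (Cyc1) and the Rieske iron-sulfur protein (Uqcrfs1), had changes of 0.34 and 0.56 and missed the threshold (edgeR adjusted p = 0.123 and 0.0604). The large core proteins Uqcrc1 and Uqcrc2 lay at 0.12 each, and their groups overlapped. Uqcr11 and Uqcrh, with Uqcrq among the 3 most abundant per length, had 0.34 each (edgeR adjusted p = 0.162 and 0.209).

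In complex V, 1 of 15 nuclear members rose. Atp5g3, 1 of 3 genes for the same c subunit of the rotor ring, had 90.4 and 83.9 CPM in cKO 1 and 2, against 51.7, 45.7 and 43.6 CPM in Ctrl 1, 2 and 3. Its log2 fold change was 0.89 (SE 0.14, edgeR adjusted p = 0.0178). The other c-subunit genes, Atp5g2 and Atp5g1, had 0.73 and 0.29 and missed the threshold (edgeR adjusted p = 0.066 and 0.267). In all 3 c-subunit genes both cKO libraries lay above Ctrl, as they did in 22.8% of all tested genes. The ratio of Atp5g3 to Atp5g1 was 0.965 and 1.06 in cKO and 0.643 to 0.715 in Ctrl (FPKM). The catalytic F1 subunit Atp5b, the nuclear member with the highest CPM, had 695 and 635 CPM in cKO 1 and 2, against 680, 669 and 667 CPM in Ctrl 1, 2 and 3, a change of −0.02 (SE 0.13, edgeR adjusted p = 0.954). Its partner Atp5a1 had 0.18 (edgeR adjusted p = 0.362), and the 3 remaining F1 genes had 0.33 to 0.56, none of which passed. Atp5l and Atp5h of the membrane part and stalk, the next most abundant per length, had 0.37 and 0.38 (edgeR adjusted p = 0.191 and 0.154).

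**Figure D4:**
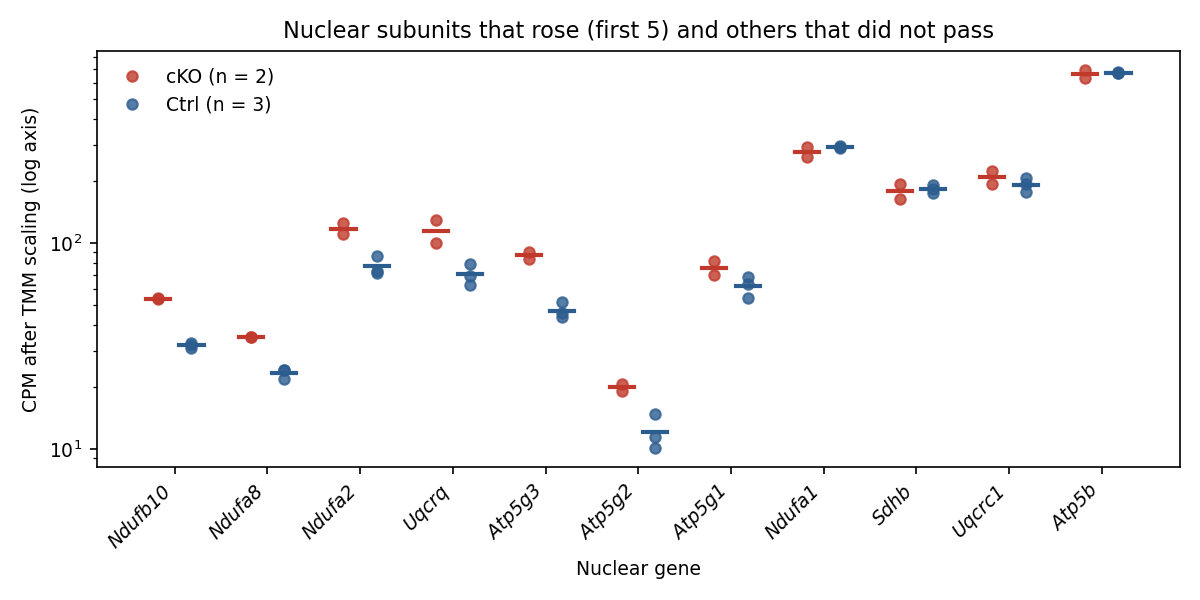
CPM after TMM scaling, on a log axis, of 11 nuclear subunit genes in each library. Points are libraries and lines are group means. Ndufb10, Ndufa8, Ndufa2, Uqcrq and Atp5g3, shown because they were called higher, do not overlap. The abundant Ndufa1, Sdhb, Uqcrc1 and Atp5b overlap between groups. Both cKO libraries lay above Ctrl in 22.8% of all tested genes.

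In complex IV the 3 nuclear genes that rose were tissue-restricted isoforms. Cox6a2, the heart and skeletal muscle form of subunit VIa, had 16.3 and 4.1 CPM in cKO 1 and 2, against 0.65, 0.146 and 0.154 CPM in Ctrl 1, 2 and 3 (398 and 110 counts in cKO, 14, 3 and 4 counts in Ctrl). Cox6a2 met the minimum of 10 counts in 2 libraries only through cKO. Its place among the 13 calls is therefore no support for a rise of the module. Its log2 fold change was 5.0 (SE 0.85, edgeR adjusted p = 0.0211), and 3.68 without cKO 1, 5.69 without cKO 2 and 6.05 without Ctrl 1. The general form Cox6a1 had 157 and 147 CPM in cKO 1 and 2, against 143, 128 and 117 CPM in Ctrl 1, 2 and 3, a change of 0.23 that missed the threshold (edgeR adjusted p = 0.315). Even in cKO, Cox6a2 was a minor form, at 0.0867 and 0.0235 of Cox6a1 in FPKM, against 0.000960 to 0.00382 in Ctrl. Of 17 muscle markers 5 could be tested and 1 was higher, and the list summed to 102 and 77.3 CPM in cKO 1 and 2 and 39 to 41.6 CPM in Ctrl. Most of the sum was Casq1, with 68.9 and 75.4 CPM in cKO and 35.3 to 38.3 CPM in Ctrl. Of the 17 markers, 2 were at 0 in cKO 1, 10 in cKO 2 and 8 to 10 in Ctrl, and 7 were at 0 in all Ctrl libraries. Myl1 had 87 counts in cKO 1 and 0 in the other libraries, Mb had 54 and 11 counts in cKO and 1 to 4 in Ctrl, and Actn3 had 32 and 17 counts in cKO and 35 to 47 in Ctrl. The part of muscle RNA in the Cox6a2 result was not tested.

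Cox6b2, known as the testis form of subunit VIb, had 2.08 and 3.61 CPM in cKO 1 and 2, against 0.696, 0.781 and 0.537 CPM in Ctrl 1, 2 and 3. Its log2 fold change was 2.08 (SE 0.49, edgeR adjusted p = 0.0428). Cox4i2, a form of subunit IV known from lung and from low oxygen, had 2.29 and 3.28 CPM in cKO 1 and 2, against 0.881, 0.683 and 0.845 CPM in Ctrl 1, 2 and 3, a change of 1.79 (SE 0.45, edgeR adjusted p = 0.0494). In contrast to Cox6a2, both were higher in cKO 2 than in cKO 1. Both rest on few reads, 14 to 22 counts in each Ctrl library, and neither passed when no filter on low counts was applied (edgeR adjusted p = 0.0527 for Cox6b2 and 0.0655 for Cox4i2). The general forms Cox6b1 and Cox4i1 had changes of 0.40 and 0.58 (edgeR adjusted p = 0.164 and 0.0579), and Cox4i1 had 256 CPM in each cKO library, against 196, 166 and 151 CPM in Ctrl 1, 2 and 3.

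Ndufa4l2, a low-oxygen paralogue of the complex IV subunit gene Ndufa4, went the other way by value, with 1.39 and 0.335 CPM in cKO 1 and 2, against 4.13, 1.76 and 0.845 CPM in Ctrl 1, 2 and 3. The groups overlapped and the change of −1.38 (SE 0.91) did not pass (edgeR adjusted p = 0.346). Ndufa4 itself had −0.09 (edgeR adjusted p = 0.864). Outside the 4 isoform genes Cox4i2, Cox6a2, Cox6b2 and Ndufa4l2, the 12 remaining nuclear complex IV subunits had a median of 0.27, and 0 passed. The abundant Cox6c had 0.43 (edgeR adjusted p = 0.189). These 12 include Cox7a2, Cox7a2l, Cox7b and Cox8a, at 0.23, 0.35, 0.26 and 0.28. Of their restricted partners, Cox7a1 had 6 and 8 counts in cKO and 2 to 4 in Ctrl, Cox8b had 3 and 2 counts in cKO and 0 in Ctrl, Cox7b2 had at most 1 count and Cox8c had 0 in all libraries.

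**Figure D5:**
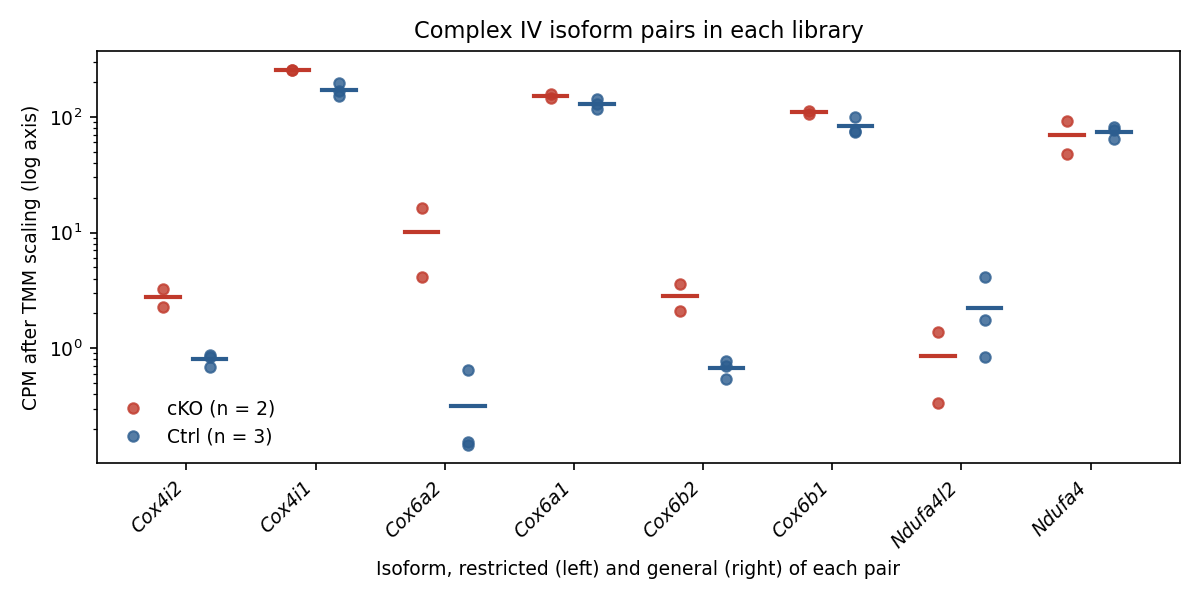
CPM after TMM scaling, on a log axis, of 4 restricted complex IV isoforms, each with its general partner at its right. Points are libraries and lines are group means. Cox4i2, Cox6a2 and Cox6b2 are higher in both cKO libraries at levels far below their partners, and Ndufa4l2 overlaps between groups.

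The 4 complex IV assembly genes of the pathway, Cox10, Cox11, Cox15 and Cox17, had changes of 0.15, 0.44, −0.59 and 0.50, and 0 passed. Cox15, which makes haem A, was the single member whose cKO libraries (4.37 and 6 CPM) both lay below Ctrl (7.22 to 8.87 CPM). Cytochrome c itself (Cycs) had 71.4 and 49.1 CPM in cKO 1 and 2, against 45.3, 44.1 and 45.3 CPM in Ctrl 1, 2 and 3, a change of 0.42 that missed the threshold (edgeR adjusted p = 0.174). Both it and its copy Gm10053 (0.49) had fractional counts. Outside the complexes, the pyrophosphatase genes Ppa1 and Ppa2 had 0.22 and 0.67 (edgeR adjusted p = 0.291 and 0.0509) and Lhpp had −0.32 (edgeR adjusted p = 0.622). Tcirg1, a vacuolar pump subunit that the pathway also lists, had 0.939 and 7.49 CPM in cKO 1 and 2, against 1.3, 1.07 and 1.73 CPM in Ctrl 1, 2 and 3, and its change of 1.62 turned to −0.54 without cKO 2.

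Promoter sequence was available for 73 of the 91 nuclear members in the RefSeq table of build GRCm38.p6, as windows from 250 bases before to 50 after each start. Sites of nuclear respiratory factor 1, an activator of many respiratory genes, were searched on both strands by the NRF1-type motif. It was found in 18 of the 73 members with a window (24.7%) and in 5.19% of all 27025 genes with one. ETS-type CCGGAAG was found in 24.7% of the members and 9.93% of all genes, and YY1-type AANATGGCG in 15.1% and 2.76%. A match describes the letters only. Windows of 3 of the 4 matched genes among the 8 called nuclear members are printed, to show a respiratory-factor motif in capitals where there is one (Ndufa8 and Atp5g3) and a window with none of the 3 motifs (Ndufb10).
Ndufa8 (chr2:36049289-36049588, minus strand): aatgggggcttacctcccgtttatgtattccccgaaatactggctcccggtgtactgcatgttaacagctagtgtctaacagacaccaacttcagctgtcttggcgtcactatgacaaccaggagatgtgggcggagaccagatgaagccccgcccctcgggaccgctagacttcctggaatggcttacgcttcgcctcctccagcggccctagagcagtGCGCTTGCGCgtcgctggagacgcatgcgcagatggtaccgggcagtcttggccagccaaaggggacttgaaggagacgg
Atp5g3 (chr2:73911277-73911576, minus strand): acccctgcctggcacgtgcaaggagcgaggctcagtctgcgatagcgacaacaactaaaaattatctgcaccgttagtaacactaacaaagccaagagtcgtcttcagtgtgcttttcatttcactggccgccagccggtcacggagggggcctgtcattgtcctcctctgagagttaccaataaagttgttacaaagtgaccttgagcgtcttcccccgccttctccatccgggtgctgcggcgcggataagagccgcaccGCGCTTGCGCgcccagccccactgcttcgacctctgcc
Ndufb10 (chr17:24724374-24724673, minus strand): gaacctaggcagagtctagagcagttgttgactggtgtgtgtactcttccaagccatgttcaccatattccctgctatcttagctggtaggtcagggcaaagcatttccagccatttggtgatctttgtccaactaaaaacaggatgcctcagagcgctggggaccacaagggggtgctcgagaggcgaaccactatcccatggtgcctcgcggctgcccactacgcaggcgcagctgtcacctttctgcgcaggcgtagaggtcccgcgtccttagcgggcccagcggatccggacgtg
Of the 4 called members with a window, 2 held this motif, and 0 held either of the others.

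Lists of genes that serve the respiratory chain held few calls. For these and the lists below, the share among all tested genes was 5.76% higher and 7.73% lower. Of 29 tested genes for expression of mitochondrial DNA 1 was higher and 0 lower, with a median log2 fold change of 0.04. The higher gene was Trmt10c, a subunit of the enzyme that trims the leading ends of mitochondrial tRNAs (0.82, SE 0.20, edgeR adjusted p = 0.0485), with 11.4 and 11.8 CPM in cKO and 5.87 to 7.47 CPM in Ctrl. The most abundant of the list, Hsd17b10 and Mtpap, had 0.02 and 0.04 (edgeR adjusted p = 0.925 and 0.936). Of 49 assembly factors 1 was higher and 1 lower, with a median of 0.20 and 35 positive values. Ndufaf8 (complex I) rose by 0.82 (SE 0.21, edgeR adjusted p = 0.0489) and Uqcc1 (complex III) fell by 0.83 (SE 0.18, edgeR adjusted p = 0.0358), with 12.5 and 16.4 CPM in cKO and 24.3 to 27.5 CPM in Ctrl. The abundant Coa5 and Cox14 had −0.74 and 0.28 and missed the threshold (edgeR adjusted p = 0.0847 and 0.301). Of 14 genes for cytochrome c and coenzyme Q synthesis 0 passed in either direction by edgeR, with a median of 0.31 and 10 positive values. This list includes the member Cycs, and its other abundant gene, Coq2, had −0.41 (edgeR adjusted p = 0.212).

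Among 12 tested regulators of mitochondrial biogenesis 1 was higher and 2 lower, with a median of −0.42. The lower genes were Ppargc1a, the PGC-1α coactivator, and Esrrg, an oestrogen-related receptor. Ppargc1a had 0 counts in both cKO libraries and 12, 18 and 12 in Ctrl, at least 5.4-fold lower (edgeR adjusted p = 0.0366). Esrrg had 0 in both and 10, 7 and 24 in Ctrl, at least 4.91-fold lower (edgeR adjusted p = 0.045). Both bounds set the Ctrl mean against a floor of 3 counts in each cKO library, and single Ctrl libraries can lie closer to it. Both genes passed the filter on low counts only through Ctrl, so they could be called in the lower direction only. Yy1, a transcription factor gene, rose by 0.96 (SE 0.24, edgeR adjusted p = 0.0494). The abundant Prkaa2 and Gabpa had −0.25 and −0.60 and missed the threshold (edgeR adjusted p = 0.316 and 0.221).

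Other mitochondrial lists gave a comparison for the size of these changes. Mitochondrial structure and import genes had a median of 0.40 over 39, with 3 higher and 1 lower. The outer-membrane channel gene Vdac3 rose by 0.96 (SE 0.22, edgeR adjusted p = 0.0386), import gene Timm13 by 0.92 (SE 0.15, edgeR adjusted p = 0.02), Timm17b by 0.86 (SE 0.18, edgeR adjusted p = 0.0329), whereas the import receptor gene Tomm70a fell by 0.85 (SE 0.18, edgeR adjusted p = 0.0346). The chaperone gene Hspa9 had 232 and 77.9 CPM in cKO 1 and 2, against 93.2 to 98.2 CPM in Ctrl, and missed the threshold (edgeR adjusted p = 0.3). Citrate cycle genes had a median of 0.09 over 19, with 0 higher and 1 lower (Suclg2, −1.06, SE 0.27, edgeR adjusted p = 0.0489), and the abundant Idh2 and Idh3g had 0.59 and 0.27 and missed the threshold (edgeR adjusted p = 0.0565 and 0.242).

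Of 15 tested mitophagy genes 3 were higher and 2 lower (median 0.03). Sqstm1, the p62 cargo receptor, rose by 2.50 (SE 0.61, edgeR adjusted p = 0.0454), with 1544 CPM in cKO 1 and 300 CPM in cKO 2 and 135 to 178 CPM in Ctrl. Bnip3 and Fkbp8 rose by 1.83 and 0.60 (edgeR adjusted p = 0.0141 and 0.0296) and Bcl2l13 fell by 0.91 (edgeR adjusted p = 0.0199). Bnip3l, the receptor for mitochondrial removal in lens fibres, had 295 and 283 CPM in cKO and 225 to 236 CPM in Ctrl, a change of 0.32 that missed the threshold (edgeR adjusted p = 0.138). Hypoxia-responsive genes moved both ways, with 3 higher and 2 lower of 19 (median 0.39). Hif1a fell by 2.52 (SE 0.31, edgeR adjusted p = 0.0102). Hif3a had 0 counts in both cKO libraries and 13, 6 and 23 in Ctrl. Against the Ctrl mean it was lower by at least 5.06-fold (edgeR adjusted p = 0.0449). It passed the filter on low counts only through Ctrl, so it could be called lower only. The abundant Ndrg1 and Slc2a1 had −0.68 and −0.97 and missed the threshold (edgeR adjusted p = 0.1 and 0.0628). Vegfa, Egln1 and Bnip3 were the genes that rose, by 1.93, 1.15 and 1.83 (edgeR adjusted p = 0.0484, 0.0415 and 0.0141).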

How the data were processed

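Poly(A) RNA of pooled P14 mouse lenses was measured in 5 libraries (2 cKO, 3 Ctrl). The authors deposited expected counts and FPKM per gene, per the file headers. RSEM, Trimmomatic 0.18.0 and GRCm39 are named, without roles, per the submitters' processing notes; nothing states the aligner or whether strand was used. Deposited expected counts were rounded. Genes passing filterByExpr (minimum count 10, total 15) were TMM scaled and fitted with edgeR 4.0.16 (quasi-likelihood, R 4.3.3, no block), with Benjamini-Hochberg adjustment over all 11724 genes. SEs came from the F statistic. Replicates are separate lens pools. Deposited FPKM served for ratios within a library and, with limma 3.58.1 on log2(FPKM + 1) or log2(FPKM + 0.1), as an alternative, like DESeq2 1.42.0, RLE and total-count scaling, other filters, left-out libraries and a replicate block. The fits were tested on simulated data. Floors of 3 counts cover counting error only.

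Members and lists were chosen with earlier results of these data known. Complexes were assigned by symbol, with Ndufa4 and Ndufa4l2 placed in complex IV. Named genes are the 13 mitochondrial mRNAs, complex II, the 3 most abundant (mean FPKM) and up to 5 called nuclear members each way of every other complex, isoform groups, members outside the complexes, and of each list the 2 most abundant and 2 most changed called genes. Others were chosen after their values were seen. Single values of some genes counted in the groups and lists are not reported here.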

Additional observations from a re-analysis of the deposited data

How the results depend on the processing

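The sign of all 13 calls stayed positive in every setting run. They were picked as higher in these same libraries, so a kept sign says little about their stability. Of the 13 calls, 10 were kept with no filter on low counts and 2 with a replicate block. Without Ctrl 1, 2 or 3, 0, 0 and 1 were kept. Over total-count scaling, log2(FPKM + 1) and log2(FPKM + 0.1), which shifted the median of all genes by 0.22, 0.14 and 0.16 (log2), medians were 0.85, 0.86 and 0.88 for mitochondrial members and 0.50, 0.48 and 0.50 for nuclear members. In that order they were 0.41, 0.40 and 0.41 for nuclear complex I, 0.51, 0.47 and 0.49 for II, 0.55, 0.55 and 0.55 for III, 0.50, 0.50 and 0.50 for IV, and 0.54, 0.54 and 0.55 for V. Members called higher numbered 34, 44 and 47 there and 24 by DESeq2; all genes called higher numbered 1234, 1380 and 1402 there, and DESeq2 called 1203 higher and 1561 lower. Leaving out 1 library gave 0 to 39 members called higher and 0 to 2 lower, 6 to 2197 genes higher and 15 to 2964 lower, where a single cKO library takes its spread from Ctrl. The medians ranged from 0.50 to 0.83 (mitochondrial), 0.14 to 0.42 (nuclear), 0.071 to 0.33 (I), 0.25 to 0.45 (II), 0.19 to 0.36 (III), 0.20 to 0.47 (IV) and 0.16 to 0.47 (V), and the difference in log2 genome ratio from 0.53 to 0.74. With a replicate block the calls were 2 members, 68 genes higher and 107 lower, with medians of 0.41 (II) and 0.27 (III); same-numbered libraries correlated at 0.111 and −0.0834, so the numbers were not shown to pair the libraries. Reversed values, none of them called, were Atp5b 0.00017 (DESeq2), 0.0034 (RLE) and 0.20 (total counts and both FPKM fits); Ndufa1 0.13, Sdhb 0.17 and Ndufa4 0.098 in total counts, with Ndufa1 0.13, Sdhb 0.17 and Ndufa4 0.033 in both FPKM fits. With 1 library left out, the changes ranged from −0.096 to 0.050 for Atp5b, −0.17 to 0.00064 for Ndufa1, −0.65 to 0.31 for Ndufa4, −0.17 to 0.077 for Sdhb, −0.15 to 0.52 for Cox7a2, −0.031 to 0.50 for Cox7b, −0.91 to 0.084 for Lhpp, −0.54 to 2.43 for Tcirg1 and −0.072 to 0.28 for mt-Cytb. The cause of these changes was not tested. With 2 cKO pools, and counts of 14 to 22 in Ctrl for the rare isoforms, precision is limited.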

Other observations

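Genes related to the ATP synthase but outside the pathway rows were looked at after their values were seen. Atpif1, the inhibitor of ATP hydrolysis by the synthase, had 74.2 and 65.1 CPM in cKO 1 and 2, against 48.1, 44.6 and 39.5 CPM in Ctrl 1, 2 and 3, and rose by 0.66 (SE 0.15, edgeR adjusted p = 0.0389). Dmac2l, known as a coupling factor of the synthase, had 12.7 and 11.6 CPM in cKO 1 and 2, against 19.7, 23.6 and 21.3 CPM in Ctrl 1, 2 and 3, and fell by 0.82 (SE 0.17, edgeR adjusted p = 0.0306). Neither overlapped between groups, while 22.8% of all tested genes lay above Ctrl in both cKO libraries and 28.7% below. The small subunit genes Atp5md and Atp5mpl had 0.51 and 0.37 and missed the threshold (edgeR adjusted p = 0.195 and 0.25).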
